A study of Cavia porcellus with 34 samples.

Results

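AVP and OXT encode the precursors of vasopressin and oxytocin, the peptides of the magnocellular neurons of the paraventricular nucleus (PVN). Both genes were found by their symbols in each of the 3 deposited tables, so they are 2 of 12114 genes in F1, 2 of 12207 in F2 and 2 of 12068 in F3. RNA of hypothalamic micropunches was sequenced in juvenile female guinea pigs (Cavia porcellus) of the paternal line on postnatal day 40. Their F0 ancestors had received saline (Veh, labelled Control) or the synthetic glucocorticoid betamethasone (sGC, labelled Beta) in pregnancy, and the animals sequenced were their offspring (F1, 5 Veh and 5 sGC), grand-offspring (F2, 5 and 5) and great-grand-offspring (F3, 6 and 6). F1 animals were exposed in utero, whereas F2 and F3 of the paternal line descend from F1 males kept for breeding. A punch held the whole PVN and, as the study's methods state, could hold neighbouring hypothalamus. By the same methods each animal stands for a litter of its own. Within a bulk punch, fewer magnocellular cells and less RNA per cell cannot be told apart.

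Magnocellular neurons of the PVN and the supraoptic nucleus send axons to the posterior pituitary and release vasopressin or oxytocin into the blood. Vasopressin retains water in the kidney and, from parvocellular PVN neurons that also make CRH, adds to the release of ACTH. Oxytocin acts in parturition, lactation and social behaviour. Most magnocellular cells make mainly one of the peptides, each cut from a precursor that also carries a neurophysin. The genes lie side by side in mammals and share a nearly identical neurophysin exon, so short reads of that exon could be assigned to either gene. The part of such reads in the values below was not tested. Both levels, their ratio and their correlation are uncertain to that extent.

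The values were normalised counts, corrected and rounded by the authors in a separate table per generation, so levels were compared only within a generation. Their sums per animal ran from 15.57 to 21.94 M (mega) in F1, from 15.65 to 19.44 M in F2 and from 18.69 to 18.98 M in F3. Of the F3 animals, 2 sGC libraries (SGM_21 and SGM_22) came from a second sequencing batch that held no Veh library analysed here. Some F1 and F2 libraries stood apart in marker genes of tissue next to or within the PVN. The summed level of 4 thalamus markers was 8107 in Veh SGM15 and 1247 to 2287 in the other F1 animals. The summed level of 5 endothelial markers was 11753 in sGC SGM4 and 10426 in sGC SGM8, against 6387 to 7580 in the other F1 animals. F1 results are therefore also given without these animals. In F2 the summed level of the 3 thalamus markers present ran from 733 to 5246 in Veh and from 1003 to 3694 in sGC. It was highest in Veh SGM28 (5246) and SGM23 (4414). In F3 the thalamus sum ran from 884 to 1588 in Veh and from 1108 to 1760 in sGC.

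In F1, AVP was lower in most sGC animals than in Veh, with wide spread among the sGC animals. AVP was 105166, 110112, 88264, 95906 and 48718 normalised counts in Veh SGM3, SGM7, SGM11, SGM15 and SGM19. It was 10482, 14891, 77938, 102436 and 23305 in sGC SGM4, SGM8, SGM12, SGM16 and SGM20. Thus 3 of 5 sGC animals lay below the lowest Veh animal, 1 of 5 lay above the Veh mean, and the groups overlapped. Mean AVP was 89633 ± 24372 (SD, n = 5) in Veh and 45810 ± 41681 (SD, n = 5) in sGC.

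Within each group OXT followed the same order of animals. It was 80394, 89532, 68822, 78412 and 36797 normalised counts in F1 Veh SGM3, SGM7, SGM11, SGM15 and SGM19. In sGC SGM4, SGM8, SGM12, SGM16 and SGM20 it was 7648, 11246, 61089, 70074 and 18465. Again SGM4, SGM8 and SGM20 lay below all 5 Veh animals, while SGM12 and SGM16 lay within their range. Mean OXT was 70791 ± 20378 (SD, n = 5) in Veh and 33704 ± 29531 (SD, n = 5) in sGC.

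**Figure D1:**
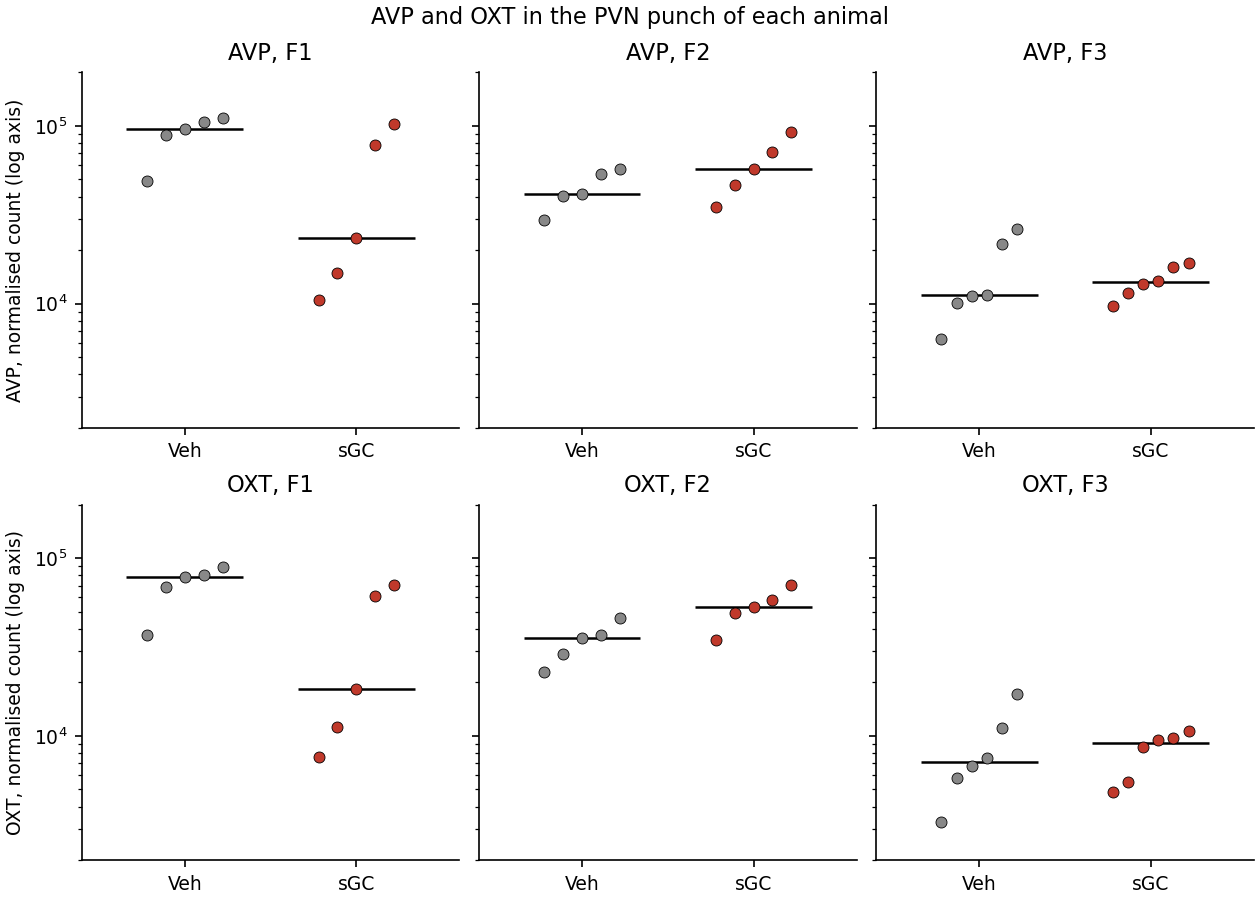
Normalised counts of AVP (top) and OXT (bottom) on a log axis in F1, F2 and F3, with 1 point per animal, Veh in grey, sGC in red and a line at each group's median. In F1, 3 sGC animals lie below all Veh animals in both genes, and in F2, 4 of 5 sGC animals lie above all Veh animals in OXT; heights are not comparable between generations.

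Neither gene passed the threshold over all genes in F1. A fold change is on the log2(value + 1) scale, and the threshold is an adjusted p under 0.05 (limma, Benjamini-Hochberg). The log2 fold change of AVP was -1.47 with a standard error of 0.42 and a 95% interval from -2.35 to -0.59 (limma, adjusted p = 0.11). For OXT it was -1.54 with a standard error of 0.42 and an interval from -2.42 to -0.67 (limma, adjusted p = 0.0884). Of 11874 genes tested in F1, 78 passed (0.657%), of which 72 rose and 6 fell with sGC. At an unadjusted p under 0.05 there were 1611 (13.6%). Both peptide genes are among the 173 of these that were lower in sGC (1.46% of genes tested), while 1438 (12.1%) were higher. With median-of-ratios size factors 1006 genes passed as higher and 1052 as lower, and 1896 and 2016 had an unadjusted p under 0.05, so the share of genes on the lower side depends on the scaling. By the size of the fitted difference among genes lower in sGC, OXT ranked 3 and AVP 5 of all genes tested, while by p they ranked 177 and 227.

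The error limma assigned to these genes was smaller than that of their own animals, because it is drawn towards the spread of other genes of like level. With each gene's own spread the standard error was 0.69 for AVP and 0.68 for OXT. An exact two-sided permutation test over the 252 arrangements of the animals gave p = 0.0714 for AVP and p = 0.0635 for OXT, where the smallest p possible is 0.00794. After median-of-ratios size factors the same exact permutation test gave p = 0.0714 for AVP and p = 0.0476 for OXT, the latter on the other side of 0.05. The 2 high sGC animals decided the call. Without sGC SGM12 the log2 fold change was -1.80 for AVP and -1.89 for OXT (limma, adjusted p = 0.00883 and 0.00752), with 151 genes passing. Without sGC SGM16 it was -1.90 and -1.94 (limma, adjusted p = 0.00332 for both), with 105 genes passing. Without sGC SGM4 it was -1.08 and -1.14, without sGC SGM8 -1.21 and -1.28, and without Veh SGM15 -1.43 and -1.49, and none of these passed.

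As a share of the summed values, AVP and OXT together took 0.549% to 1.09% in F1 Veh (median 0.910%). In F1 sGC the share was 0.0947% in SGM4, 0.131% in SGM8, 0.257% in SGM20, 0.718% in SGM12 and 0.904% in SGM16. The difference between groups was thus also present on a scale that does not depend on the library's total.

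In F2 the sGC animals had the higher values. OXT was 45805, 36772, 35387, 28777 and 22786 normalised counts in Veh SGM22, SGM23, SGM27, SGM28 and SGM29. It was 34542, 53106, 49196, 70897 and 58208 in sGC SGM21, SGM26, SGM30, SGM24 and SGM25. All 5 sGC animals lay above the Veh mean and 4 of 5 above the highest Veh animal. Mean OXT was 33905 ± 8688 (SD, n = 5) in Veh and 53190 ± 13252 (SD, n = 5) in sGC.

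The log2 fold change of OXT in F2 was 0.65 with a standard error of 0.20 and a 95% interval from 0.22 to 1.08 (limma, adjusted p = 0.244). On its own spread the standard error was 0.24, and the exact two-sided permutation test gave p = 0.0317. In F2, 0 of 11965 genes passed the adjusted threshold (limma, 0%), whereas 1395 (11.7%) had an unadjusted p under 0.05. OXT was among the 298 of these that were higher in sGC (2.49%), while 1097 (9.17%) were lower. With size factors the split was 815 higher and 719 lower. OXT did not pass under any animal left out in turn, where the log2 fold change ran from 0.52 to 0.80 (limma, adjusted p from 0.063 to 0.53).

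AVP in F2 was 41098, 53494, 40355, 57143 and 29575 normalised counts in the same Veh animals, and 34832, 46346, 56947, 91773 and 71285 in the same sGC animals. Of the sGC animals, 4 of 5 lay above the Veh mean and 2 above the highest Veh animal. The log2 fold change was 0.40 with a standard error of 0.24 and an interval from -0.12 to 0.92 (limma, adjusted p = 0.543). The exact permutation test gave p = 0.214, so it did not separate the groups in AVP.

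In F3 the groups did not differ beyond their spread, and the intervals leave room for differences in either direction. AVP ran from 6289 to 26259 normalised counts in Veh (median 11123) and from 9654 to 16978 in sGC (median 13214). OXT ran from 3273 to 17091 in Veh (median 7160) and from 4833 to 10718 in sGC (median 9090). In both genes every sGC animal lay within the range of the Veh animals. The log2 fold change was 0.04 for AVP, with an interval from -0.56 to 0.64 (limma, adjusted p = 0.972), and 0.05 for OXT, with an interval from -0.64 to 0.75 (limma, adjusted p = 0.968). Of 11866 genes in F3, 6 passed (0.0506%) and 1556 had an unadjusted p under 0.05 (13.1%). In the first F3 batch alone, without sGC SGM_21 and SGM_22, the log2 fold changes were 0.08 and 0.07 (limma, adjusted p = 0.962 and 0.973). The sign of both values turned when single animals were left out, for AVP down to -0.17 and for OXT down to -0.19 without Veh SGM9.

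**Figure D2:**
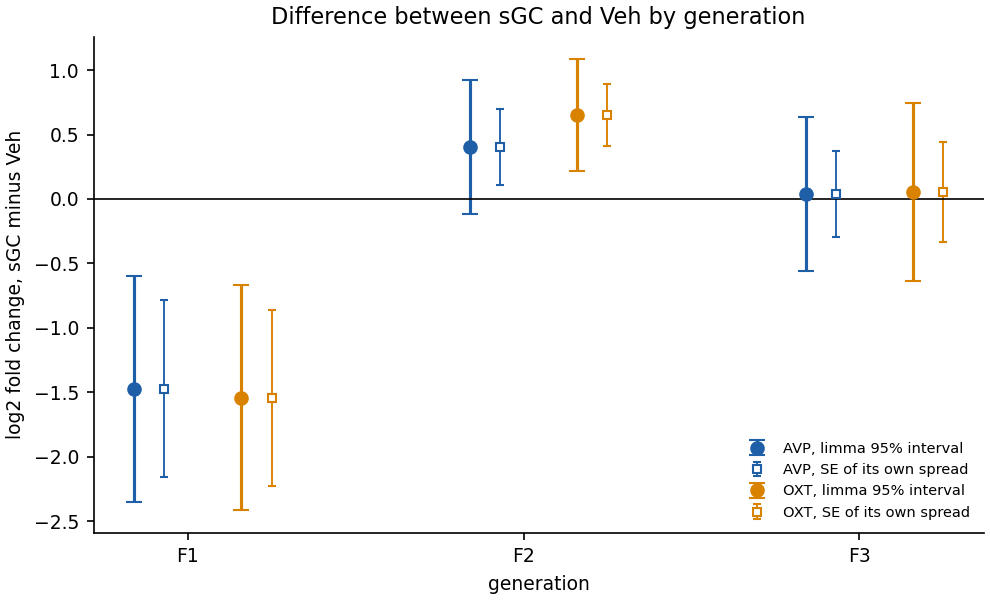
Log2 fold change of sGC minus Veh on the log2(value + 1) scale for AVP (blue) and OXT (orange) in each generation; filled circles carry limma's 95% interval and open squares the standard error of the gene's own spread. The F1 values lie near -1.5, those of F2 at 0.40 and 0.65, and those of F3 near 0.

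The difference between generations was examined on the fold changes, since levels cannot be set across the tables. Labels were permuted within each generation, so p refers to no treatment effect in either generation. It is not a test of equal effects in both. The OXT fold change in F1 was under that in F2, with a difference of -2.19 log2 units (-1.54 against 0.65; exact permutation of the treatment labels within each generation, p = 0.00624, adjusted p = 0.0374 over 6 comparisons). For AVP the difference was -1.87 log2 units (-1.47 against 0.40; exact permutation, p = 0.0271, adjusted p = 0.0813). Between F1 and F3 the difference was -1.51 for AVP and -1.60 for OXT (exact permutation, adjusted p = 0.13 for both). Between F2 and F3 it was 0.36 for AVP and 0.60 for OXT (exact permutation, adjusted p = 0.429 and 0.271). The OXT difference between F1 and F2 no longer passed when any of 11 of the 20 animals was left out, Veh SGM3, SGM7, SGM11 and SGM15 and sGC SGM4, SGM8 and SGM20 of F1 and Veh SGM28 and SGM29 and sGC SGM24 and SGM25 of F2, with adjusted p up to 0.11. The AVP difference passed when sGC SGM12 or SGM16 of F1 or sGC SGM21 of F2 was left out, with adjusted p down to 0.021.

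The ratio of AVP to OXT normalised counts, which is not corrected for transcript length and serves only to compare animals, follows the genes as a pair. In F1 it ran from 1.22 to 1.32 in Veh and from 1.26 to 1.46 in sGC. The sGC animals with the lowest peptide values had ratios close to those of the others, 1.37 in SGM4, 1.32 in SGM8 and 1.26 in SGM20. The mean log2 ratio was 0.35 ± 0.05 (SD, n = 5) for Veh and 0.42 ± 0.09 (SD, n = 5) for sGC. The difference was 0.07 (exact permutation, p = 0.159, adjusted p = 0.44 over 3 generations). While AVP spanned 9.77-fold among the F1 sGC animals and OXT 9.16-fold, their ratio thus stayed within 1.22 to 1.46.

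In F2 the ratio varied more, from 0.897 in Veh SGM22 to 1.99 in Veh SGM28. The sGC animals lay between 0.873 and 1.29. The log2 ratio differed by -0.25 between the groups (exact permutation, p = 0.294, adjusted p = 0.44). In F3 the ratio ran from 1.48 to 1.95 in Veh and from 1.37 to 2.39 in sGC, with a difference in log2 ratio of -0.014 (exact permutation, p = 0.926, adjusted p = 0.926). In no generation did the permutation test separate the groups in the ratio.

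AVP and OXT varied together from animal to animal within the groups. After subtracting the group means, Pearson's r of the log2 values in F1 was 0.998 (permutation within groups, p = 6e-05, adjusted p = 0.00018) and Spearman's rho 1.0 (permutation, p = 6e-05). Without sGC SGM16 and SGM4, the 2 animals farthest from the median of AVP, r was 0.999 (permutation, p = 0.00163). The F1 sGC animals fell into 3 low and 2 high ones, sets too small for a correlation of their own, so r in F1 describes that split as well as the variation around it.

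In F3, r was 0.94 (permutation, p = 0.00015, adjusted p = 0.000225) and rho 0.92 (permutation, p = 0.00036). It was 0.84 without Veh SGM9 and SGM17 (permutation, p = 0.0035) and 0.94 in the first batch alone. In F2, r was 0.69 (permutation, p = 0.0393, adjusted p = 0.0393) and rho 0.55 (permutation, p = 0.131). Without sGC SGM21 and SGM24, the animals with the lowest and highest AVP of their group, r was 0.38 (permutation, p = 0.467). The F2 relation also missed 0.05 when any of 8 of the 10 animals was left out, Veh SGM23, SGM27 and SGM29 and all 5 sGC animals, with r from 0.52 to 0.73 (permutation, p from 0.0502 to 0.177). These F2 values are without further scaling. With median-of-ratios size factors r in F2 was 0.78 over all animals (permutation, adjusted p = 0.0166). The r values of other genes below are on that scale.

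**Figure D3:**
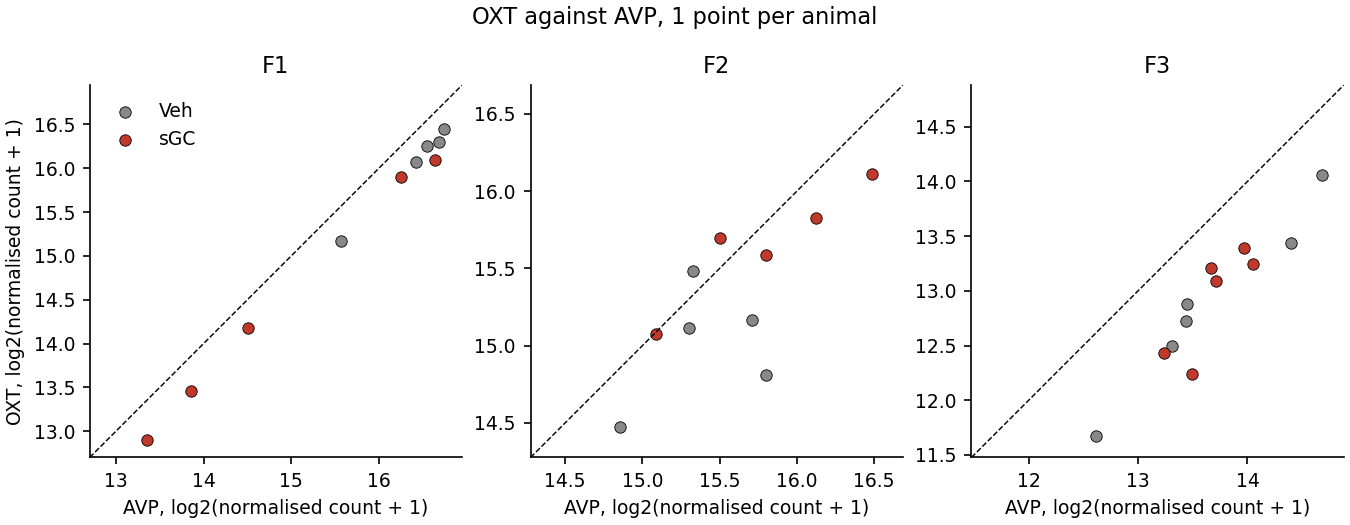
OXT against AVP in log2(normalised count + 1), 1 point per animal, Veh in grey and sGC in red; the dashed line marks equal values. The F1 animals follow a line over more than 3 log2 units, the F2 animals scatter more widely, with Veh SGM28 lowest in OXT for its AVP, and all F1 and F3 animals lie under the dashed line.

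The animals within a group differed more in these genes than in most others. Among genes with a mean of at least 50, 0.154% had a larger SD of log2 values than AVP (SD 1.46) in F1 sGC and 0.172% a larger one than OXT (SD 1.44), where the median gene had 0.163. In F1 Veh the SDs were 0.48 and 0.51, with 2.71% and 2.13% of genes above them. In F3 Veh, AVP (SD 0.76) ranked 9 and OXT (SD 0.81) ranked 7 of 10943 genes by SD, and the highest animal had 4.18 times the AVP and 5.22 times the OXT of the lowest. In F3 sGC the corresponding folds were 1.76 and 2.22. In F2 the SDs ran from 0.38 to 0.54, with 1.47% to 9.1% of genes above them.

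The receptors of the peptides were present at low values or not listed. AVPR1A, the receptor behind vasopressin's vascular and many of its brain effects, was 147 ± 50.6 normalised counts in F1 Veh and 171 ± 31.5 in F1 sGC (SD, n = 5), 0.28 higher on the log2 scale (limma, adjusted p = 0.652). OXTR, the only oxytocin receptor, was 63.2 ± 35.6 and 83.8 ± 32.4 there (SD, n = 5; log2 fold change 0.54, limma, adjusted p = 0.564). Neither receptor passed in any generation, also at an unadjusted p under 0.05. AVPR1B and AVPR2, the pituitary and kidney receptors, were not in the tables used here.

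No gene of the precursor processing and granule list passed in any generation, although AVP and OXT pass through this route. It held 11 genes, among them the convertases PCSK1 and PCSK2, the carboxypeptidase CPE, the amidating enzyme PAM and the granule proteins SCG2, CHGA and VGF. In F1 and F2 none had an unadjusted p under 0.05, and in F3 PCSK1 (log2 fold change -0.32) and CHGA (-0.18) did (limma, adjusted p = 0.215 and 0.344), beside 6.92% of all genes lower at that level in F3. The median log2 fold change of the list in F1 was 0.01, against 0.07 for all genes. SCG2, a granule protein of many peptide neurons, was 19222 ± 4523 in F1 Veh and 19165 ± 2467 in F1 sGC (SD, n = 5), while AVP and OXT differed as above.

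Among 6 genes of osmosensing, release and breakdown, 5 were tested and none passed. In F1, LNPEP, the aminopeptidase that degrades oxytocin and vasopressin, lay at 0.30 on the log2 scale and KCNMB4, a subunit of the BK potassium channel, at -0.36 (limma, adjusted p = 0.275 and 0.289). With median-of-ratios size factors, under which 2058 genes of the F1 table passed, both did as well, at 0.23 and -0.42 (limma, adjusted p = 0.00929 and 0.00971). CD38, which is needed for oxytocin release, lay at -0.04 (limma, adjusted p = 0.948).

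Of 10 co-transmitters and markers of magnocellular cells, 10 were tested in F1 and F3 and 9 in F2, and none passed. At an unadjusted p under 0.05 (limma), 2 of 10 were lower in F1, beside 1.46% of all genes, and 1 of 9 higher in F2, beside 2.49%. In F3, 3 of 10 were higher and 1 lower, beside 13.1% of all genes in either direction. In F2, PDYN, the dynorphin precursor held in vasopressin cells, was 2964 ± 390 in Veh and 3839 ± 423 in sGC (SD, n = 5), 0.38 higher on the log2 scale (limma, adjusted p = 0.183). The r of PDYN with AVP was 0.62 in F1, 0.93 in F2 and -0.28 in F3. CARTPT, the precursor of the CART peptides, lay at -0.67 in F1, 0.19 in F2 and -0.14 in F3 on the log2 scale (limma, adjusted p from 0.372 to 0.839). Its r with AVP was 0.81 in F1, 0.90 in F2 and 0.65 in F3. Of the 9 genes of this list with values in all generations, CARTPT alone had a positive r with AVP in all 3, while GAL, NOS1 and CALB1 had a negative r in all 3, between -0.65 and -0.20. CALB2, the calcium-binding protein calretinin, lay at -0.70 in F1 (limma, adjusted p = 0.142), where Veh SGM15 had 15629 normalised counts and the other F1 animals 3395 to 6779.

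Among 9 regulators of magnocellular formation and transcription, OTP, SIM1, POU3F2 and CAPRIN2 lay on the side of AVP and OXT in F1 and F2, and some others did not. No gene of the list passed. OTP and SIM1 are needed for the formation of these neurons, and POU3F2 for their differentiation. OTP was 2404 ± 551 in F1 Veh and 1686 ± 855 in F1 sGC (SD, n = 5), or -0.64 on the log2 scale (limma, adjusted p = 0.234). The F1 values were -0.34 for SIM1, -0.35 for POU3F2 and -0.53 for CAPRIN2 (limma, adjusted p = 0.382, 0.415 and 0.407). In F2 the values were 0.32 for OTP, 0.20 for SIM1, 0.28 for POU3F2 and 0.38 for CAPRIN2 (limma, adjusted p = 0.278, 0.394, 0.278 and 0.282). The F3 values of these genes lay between -0.11 and -0.01. On the other side in F1 were CREB3L1 at 0.25, SIM2 at 0.24 and ARNT2 at 0.17, and ESR2 was at -0.01 (limma, adjusted p from 0.453 to 0.996). In F2, CREB3L1 was at -0.39 (limma, adjusted p = 0.48). Over the 9 genes of this list the median log2 fold change was -0.18 in F1, 0.14 in F2 and -0.02 in F3, against 0.07, -0.08 and -0.0016 for all genes. At an unadjusted p under 0.05 in the same direction as the peptides were 1 of 9 in F1 and 4 of 9 in F2, beside 1.46% of all genes lower in F1 and 2.49% higher in F2, and 0 of 9 in F3.

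POU3F2, SIM1 and OTP also co-varied with the peptides across animals of a group, with AVP less closely in F2. The correlation with AVP in F1, F2 and F3 was 0.97, 0.57 and 0.86 for POU3F2, 0.98, 0.56 and 0.70 for SIM1 and 0.96, 0.32 and 0.80 for OTP. The 95th percentile of r with AVP over all genes compared was 0.762, 0.648 and 0.639, so the F2 values lay under it. Of the 9 regulators, 4 had a positive r with AVP in all 3 generations and none a negative one, where 13.2% of 10541 genes were positive in all 3. Not every regulator followed. CREB3L1, which activates vasopressin transcription in rodents, had r of -0.75, -0.83 and 0.52 with AVP, and RASD1, a Ras-like protein of these neurons, 0.70, 0.65 and -0.11. All values of this kind describe 10, 10 and 12 animals of shared tables and carry no test.

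**Figure D4:**
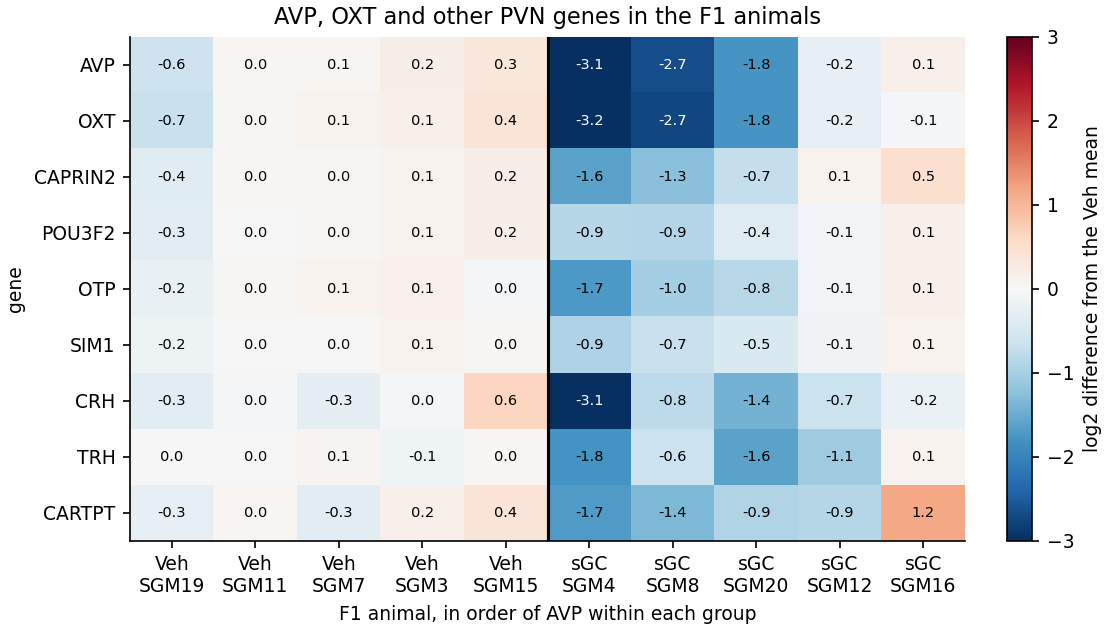
Log2 difference from the F1 Veh mean, after median-of-ratios size factors, for AVP, OXT and 7 other PVN genes (rows) in the 10 F1 animals (columns), Veh left and sGC right of the line, each in order of AVP. The sGC animals SGM4, SGM8 and SGM20 lie below the Veh mean in all 9 genes, with AVP at -3.13 to -1.78 log2 units, and SGM16 lies above the Veh mean in 7 of 9. The 7 genes drawn all have a positive r with AVP in F1, from 0.61 to 0.998, so their shared direction follows in part from their choice. List genes with a negative r are not drawn, such as CREB3L1. It was 247, 187 and 118 normalised counts in SGM4, SGM8 and SGM20, against 105 to 179 in Veh.

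The genes most like the peptides in their variation across animals were ranked among 10541 genes with a mean of at least 50, by the mean of r over the generations. The most like AVP was OXT (mean r 0.907), followed by ELL2, an elongation factor of RNA polymerase II (0.887), CAPRIN2, an RNA-binding protein that binds vasopressin mRNA (0.884), RASGRP1, an exchange factor of Ras (0.857), and MYRIP, which ties secretory granules to actin (0.845). For OXT the order was POU3F2 (0.909), AVP (0.907), BVES, a cyclic AMP-binding membrane protein (0.898), PTGFR, the receptor of prostaglandin F (0.887), and MYRIP (0.853). CAPRIN2 had r of 0.998 with AVP in F1, 0.864 in F2 and 0.790 in F3. POU3F2 had r of 0.973, 0.927 and 0.829 with OXT. For comparison, the median gene had r near 0 with either peptide, and the 95th percentile lay between 0.639 and 0.769 in single generations.

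Some of these genes had group differences of the same sign as the peptides, and none passed. PTGFR was 1026 ± 288 in F1 Veh and 538 ± 335 in F1 sGC, and 455 ± 99.2 in F2 Veh and 727 ± 99.7 in F2 sGC (SD, n = 5). Its log2 fold change was -1.13 in F1, 0.69 in F2 and 0.02 in F3 (limma, adjusted p = 0.0955, 0.0622 and 0.986). BVES had -1.08, 0.47 and 0.06 (limma, adjusted p = 0.11, 0.251 and 0.952). ELL2 and MYRIP had F1 values of -0.30 and -0.12 and F2 values of -0.08 and -0.02 (limma, adjusted p from 0.469 to 0.933).

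The parvocellular peptides CRH, TRH and SST, made by other PVN neurons, also had lower means in F1 sGC, and none passed. On the log2 scale TRH, which drives thyrotropin release, lay at -0.94 (limma, adjusted p = 0.0802), and with size factors it passed at -1.003 (limma, adjusted p = 0.0398). CRH, the main driver of ACTH release, lay at -1.17 (limma, adjusted p = 0.116) and SST at -0.63 (limma, adjusted p = 0.485). CRH was at 37 normalised counts in sGC SGM4 and 106 in SGM20, against 214 to 424 in Veh. It had r of 0.75, 0.71 and 0.54 with AVP in F1, F2 and F3. In F2, CRH ran from 162 to 285 in Veh and from 256 to 566 in sGC. At an unadjusted p under 0.05 (limma), 2 of the 3 peptides were lower in F1 sGC, beside 1.46% of all genes. In F2, 1 of 3 was higher, beside 2.49%, and in F3 there were 0. The list medians were -0.94, 0.19 and -0.06 in F1, F2 and F3.

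**Figure D5:**
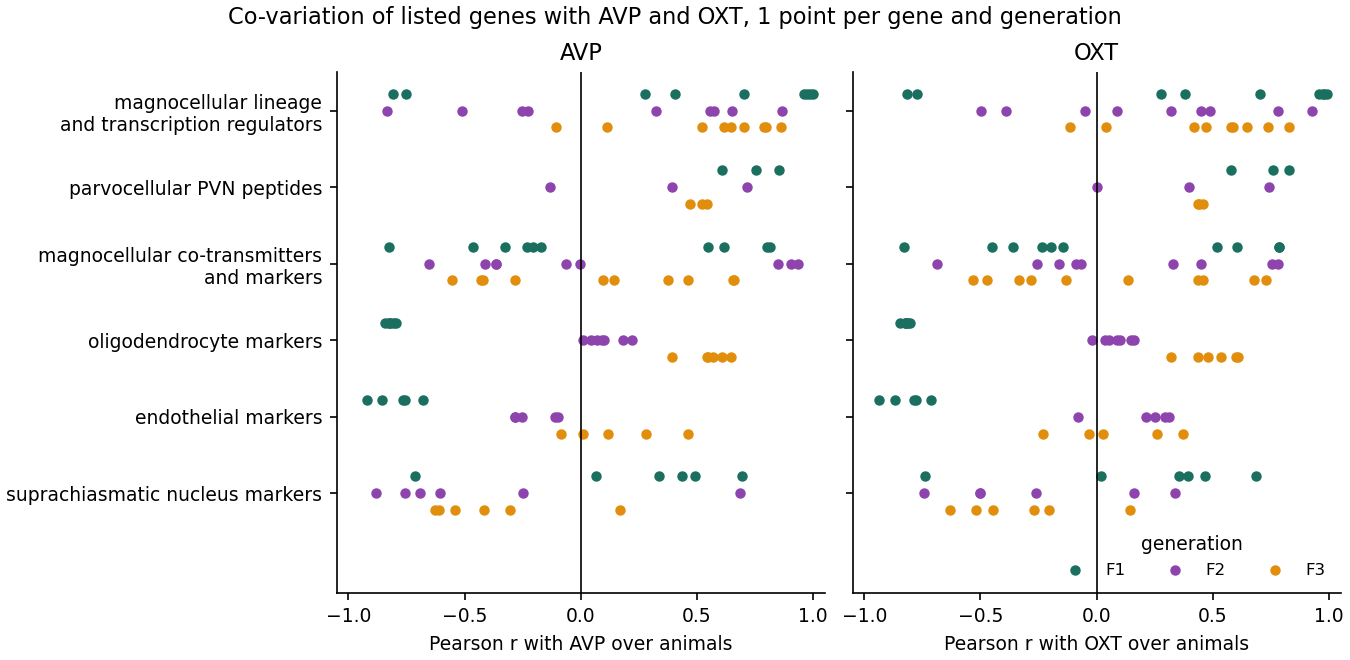
Pearson r over animals, group means subtracted, of the genes of 6 lists with AVP (left) and OXT (right), with 1 point per gene and generation (green F1, purple F2, orange F3). Oligodendrocyte markers lie near -0.8 in F1, between -0.02 and 0.22 in F2 and above 0.3 in F3, while the parvocellular peptides lie above 0 for AVP except SST in F2.

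Some markers of other cells varied with the peptides across the F1 animals, oligodendrocyte and endothelial ones inversely. The 4 ependymal markers had r between 0.54 and 0.83 with AVP. Markers of neighbouring nuclei had r with AVP from -0.71 to 0.70 (suprachiasmatic) and from -0.31 to -0.15 (arcuate and ventromedial). Oligodendrocyte markers had r between -0.84 and -0.80 with AVP for 6 genes, and their sum ran from 31412 to 55920 in Veh and from 35089 to 96267 in sGC, highest in SGM8 (96267) and SGM4 (66516). Endothelial markers had r between -0.92 and -0.68, and 4 of 5 had a higher value in sGC at an unadjusted p under 0.05 (limma), beside 12.1% of all genes, with none passing. Of 6 suprachiasmatic nucleus markers in the table, 2 passed as higher, LHX1 (log2 fold change 1.04) and RORB (0.69, limma, adjusted p = 0.0247 and 0.0432). Over all genes, 72 of 11874 passed as higher. With size factors the same 2 passed, where 1006 of all genes passed as higher. The summed level of the 6 markers ran from 1628 to 2435 in Veh and from 2362 to 4228 in sGC. VIP, the defining peptide of that nucleus, which also makes vasopressin, was 62.6 ± 36.6 in Veh and 44.0 ± 13.4 in sGC (SD, n = 5). Of 4 arcuate and ventromedial markers in the table, SOX14 (log2 fold change 0.97), FEZF1 (0.48) and NR5A1 (interval from 0.85 to 3.14) had higher values in sGC at an unadjusted p under 0.05 and none passed (limma, adjusted p from 0.095 to 0.338). The median of the 4 was 0.73, against 0.07 for all genes, and their sums were 291 to 1446 in Veh and 564 to 916 in sGC. Thalamus markers had a median of -0.67, and 2 of 4 were lower in sGC at an unadjusted p under 0.05 (limma), beside 1.46% of all genes. Their r with AVP ran from -0.89 to 0.66. Of 5 microglia markers, 2 were higher at that level, beside 12.1% of all genes. The microglia sums were 3452 to 3691 in Veh and 3509 to 5853 in sGC. None of these 2 lists passed, and with size factors CX3CR1 alone did. No listed marker was at 0. The part of these markers in the F1 values of AVP and OXT was not tested.

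In F2 all 7 oligodendrocyte markers had an unadjusted p under 0.05, each with a lower value in sGC, beside 9.17% of all genes, and none passed (limma, adjusted p from 0.0622 to 0.0902). Their sum ran from 133170 to 251306 in Veh and from 78293 to 111394 in sGC. Their correlation with OXT in F2 lay between -0.02 and 0.16 within the groups. Of 5 endothelial markers, 3 had lower values in F2 sGC at an unadjusted p under 0.05, with a list median of -0.34 and sums of 6502 to 9676 in Veh and 5925 to 6986 in sGC. Of 4 ependymal markers, RSPH1 had a higher value at that level, with a list median of 0.68 and sums of 4728 to 5127 in Veh and 5278 to 6201 in sGC. None of these passed. Thalamus markers had no member with an unadjusted p under 0.05 in F2 (limma). Of these, TCF7L2 and GBX2 had r of 0.84 and 0.76 with AVP in F2, and LEF1 had -0.29. The part of all these markers in the F2 values of AVP and OXT, in their ratio and in their correlation was not tested. In F3 no oligodendrocyte, endothelial or microglia marker had an unadjusted p under 0.05 (limma), and the sums of the oligodendrocyte markers were 51682 to 73835 in Veh and 53973 to 76317 in sGC. Neuron and astrocyte lists had medians within 0.26 of 0 in every generation and no member that passed.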

How the data were processed

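The deposited values are normalised counts in whole numbers, 1 table per generation, treated as a score with no fixed range and not as raw reads. The authors mapped reads on cavPor3, counted them per gene, corrected the 2 F3 batches with ComBat, took RUVSeq residuals and rounded. The singular values of the log tables show 1 removed direction in F1 and F2 and 2 in F3. The authors' fold change, likelihood ratio, dispersion and p-value columns were not used, and 2 re-sequenced F3 Veh libraries were not analysed here. Each generation was fitted on log2(value + 1), a pseudocount of 1, without further scaling (limma 3.58.1, R 4.3.3, eBayes with a trend). Genes needed a mean of 10 or more, and p-values were adjusted by Benjamini-Hochberg over all genes tested (threshold 0.05). Ratios and fold changes between generations were tested by exact permutation and correlations by 100000 shuffles within groups (scipy 1.17.1), all two-sided. Sums of marker lists and likeness used median-of-ratios size factors. Named genes are AVP, OXT, members of the 15 lists (95 genes) and, for each peptide, the 5 genes with the highest mean r. The members, lists and tests were chosen with earlier results of these data known. Alternatives were other scalings, pseudocounts, filters and variance models, single animals left out and the first F3 batch alone; the removed directions as covariates and the test on a gene's own spread were chosen after seeing the data. The procedures were tested on simulated data. Counting intervals need raw reads and are not given. The number of animals limits the precision.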

Additional observations from a re-analysis of the deposited data

Results flagged for a closer look

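In F1 Veh, SGM19 stood apart from the other 4 animals in AVP, with a log2 value of 15.57 against 16.43 to 16.75. Its gap was 0.729 of the range, close to the limit of 0.71, on values without further scaling. SGM19 also had the lowest summed values of F1 (15.57 M). With size factors its AVP was 57394, against 91176 to 111120 in the other 4, and the flag was not examined on that scale. Without SGM19 the F1 log2 fold change was -1.68 for AVP and -1.76 for OXT (limma, adjusted p = 0.134 and 0.105). A gap of this size is met by chance in about 1 of 20 groups, and 18 groups of values were examined, so 0.9 would be met by chance.

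The OXT fold change differed between F1 and F2 by -2.19 log2 units, from -1.54 in F1 to 0.65 in F2 (exact permutation, adjusted p = 0.0374). That p refers to no treatment effect in either generation, not to equal effects. In F1, 3 of 5 sGC animals lay below the lowest Veh animal in OXT, and in F2 4 of 5 lay above the highest.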

How the results depend on the processing

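The F1 fold changes of AVP and OXT stayed negative in all 18 alternatives each. With single animals left out they ran from -1.90 to -1.08 for AVP and from -1.94 to -1.14 for OXT, and with other scalings, pseudocounts, filters, variance models and the removed directions as covariates from -1.53 to -1.47 (limma, adjusted p from 0.0788 to 0.254) and from -1.61 to -1.54 (adjusted p from 0.0637 to 0.236). Size factors raised the genes called in F1 from 78 to 2058. The F2 value of OXT, 0.65, did not pass in limma (adjusted p from 0.063 to 0.53) and was under 0.05 only in the exact permutation test of the gene on its own (p = 0.0317), which is not adjusted over genes. The F2 value of AVP ran from 0.23 to 0.58. The F3 values turned sign only with single animals left out, from -0.17 to 0.25 for AVP and from -0.19 to 0.29 for OXT. The F3 log2 ratio also turned sign in the first F3 batch alone (0.018), and ran from -0.11 to 0.047 with single animals left out. The difference between F1 and F2 ran from -2.59 to -1.79 for OXT and from -2.30 to -1.48 for AVP with single animals left out, and the correlation of AVP with OXT in F2 from 0.52 to 0.83, where it no longer passed in 8 of 10 cases (permutation, p up to 0.177). The other differences between generations and the correlations in F1 and F3 kept their direction and their side of the threshold in every alternative. The cause of these changes was not tested. No paired analysis was possible because the groups compared share no replicate numbers. Between 5 and 6 animals a group and rounded, residual-normalised values limit the precision. Counting intervals need raw counts, which these values are not.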
